A study of Mus musculus with 23 samples.

Results

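The comparison set macrophages of the labelled Selenow knock-out after 4 h of LPS against untreated cells of the same label. It rests on 6 of the series' 23 RNA-seq libraries, taken by their titles: libraries 13, 14 and 15 are untreated (0 h) and libraries 16, 17 and 18 had 4 h of lipopolysaccharide (LPS) at 100 ng/ml. All are bone marrow-derived macrophages, grown from mouse bone marrow. Of 55401 genes in the count table, 18083 had enough reads to be tested, and every one of them is part of the comparison. Selenow encodes selenoprotein W, a small selenium-containing protein, and the deleted stretch of the gene is not described. Age, sex and strain of the mice are not given in the labels, and neither is the source of each library, which may be 1 animal or culture for several, so the p-values reflect library-to-library spread that may be technical. No untreated library is labelled with 4 h, so time in culture and LPS cannot be told apart. Wild-type macrophages (3 untreated libraries and 3 with LPS for 4 h) and knock-out libraries at 8 h (3) and 24 h (2) were used only where named.

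LPS, a part of the outer membrane of Gram-negative bacteria, is sensed by CD14, MD-2 and Toll-like receptor 4 (TLR4). From the cell surface the receptor signals through MyD88 to NF-kB and MAP kinases, and from endosomes through TRIF to IRF3, which switches on interferon-beta. Secreted interferon then acts back on the same cells through JAK kinases and STAT proteins and induces a further wave of antiviral genes. In macrophages the response is also known for feedback inhibitors made within hours, for nitric oxide and itaconate synthesis, and for a pause in proliferation.

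Levels below are CPM (counts scaled to a common library total) after TMM scaling, which corrects library totals for composition. Fold changes are log2 values of 4 h over untreated with their standard error. A gene was called when its adjusted p (edgeR's quasi-likelihood test, Benjamini-Hochberg over all genes tested) was under 0.05, and the verbs rose and fell are used of called genes only. Each library held from 40633509 to 41326792 counted fragments. No gene whose reads were 0 in a whole group is given a fitted fold as a result: its bound uses 3 counts over the group, and this and every other floor covers counting error only.

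The targeted gene did not separate the libraries cleanly. Selenow held 106, 39.4 and 40.8 CPM in libraries 13, 14 and 15 and 191, 82.6 and 81.1 CPM in libraries 16, 17 and 18. Libraries 13 and 16 thus held more than the other libraries of their group and lay near the wild-type libraries, at 88% and 98.1% of the wild-type mean of the same time, and are called knock-out here by their label only. At 8 h the knock-out libraries 19, 20 and 21 were at 82.4%, 42.6% and 39.4% of the wild-type mean, and at 24 h libraries 22 and 23 were at 102% and 63.9%. With LPS the log2 fold change was 0.93 ± 0.37 (adjusted p 0.0348), and the groups overlapped. Without library 13 it was 1.56, and the call was lost without library 14, 15 or 16 (0.68, 0.70 and 0.40). Libraries 14 and 17 stood apart in other genes. Over 10424 genes with at least 5 CPM, library 14 lay at least 2-fold above the mean of libraries 13 and 15 in 343 genes and below it in 161. Library 17 lay above the mean of libraries 16 and 18 in 277 genes and below in 192. Correlations of log2 CPM across these genes were 0.954 to 0.995 within a group and 0.612 to 0.659 between groups. For some values below that turn on 1 library, the value without that library is also given. Others are given per library only, so the lack of a second value does not mean that no single library matters.

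Macrophage markers were present in every library, at a summed 15900 to 23100 CPM untreated and 16800 to 21300 CPM at 4 h. Marker sums of other cell types were lower in every library, and several moved with LPS. In most lists 1 or 2 genes carried the change of the sum. Neutrophil markers went from 227 to 257 CPM untreated to 333 to 379 CPM at 4 h, with Lcn2 (lipocalin 2) higher by 3.22, 4 of the 13 tested markers lower, among them Ltf and Elane (-1.2 and -2.08), and 8 not passing. B cell markers went from 147 to 180 CPM to 23.3 to 34.8 CPM, with Ighm and Cd79b lower (-2.61 and -3.33), Ms4a1 and Pax5 higher (1.67 and 2.11) at under 1 CPM, not called without library 14 or 16 or, for Pax5, 15, and the other 4 of 8 with too few reads to be tested. Markers of dendritic cells went from 6.16 to 7.82 CPM to 28.5 to 43.7 CPM, with Xcr1, Ccr7 and Itgax higher (6.98, 4.38 and 1.1), Flt3 and Batf3 lower (-1.33 and -0.97; not called without library 13 or 18 and without 15 or 17) and 4 of 9 not passing. T and NK cell markers went from 2.6 to 10.8 CPM to 13.7 to 30.2 CPM. Of 4 tested 2 were higher, Lck by 5.85, and 2 did not pass. Stromal markers went from 3.42 to 32.2 CPM to 53.4 to 127 CPM. Of 10 tested 3 were higher, among them Pdgfrb and Cdh5 (6.25 and 4.96), 7 did not pass, and no collagen of the list was called. Erythroid and megakaryocyte markers went from 23.5 to 50.0 CPM to 52.0 to 73.1 CPM with none called. Eosinophil markers went from 2.01 to 2.47 CPM to 7.76 to 12.7 CPM, with 2 of 3 tested higher, Ccr3 by 3.24, and 1 not passing. Mast cell and basophil markers went from 2.79 to 3.5 CPM to 133 to 183 CPM, with Hdc (histidine decarboxylase) higher by 6.87. Of the 9 markers 5 had reads, Hdc included, and 2 were tested, of which 1 did not pass. Mcpt4, Tpsb2, Fcer1a and Cma1 had no read in the 6 libraries. The part of other cell types in the results was not tested, and in bulk RNA fewer cells of a type and less RNA per cell cannot be told apart.

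Most tested genes changed. Of 18083 genes, 11223 were called (62.1%), 5060 of them higher (28% of those tested) and 6163 lower (34.1%). Counts of list members below are to be read against these shares. The groups of libraries did not overlap in 11861 genes (65.6%). In a test against a fold of 1.5, 40.3% were called (3344 higher and 3945 lower). At least a 2-fold change was called in 3195 higher and 3825 lower genes, and the extremes were one-sided: 771 genes rose at least 16-fold against 249 that fell so far. The median called rise was 1.42 and the median called fall -1.29 on the log2 scale, and the median of all tested genes was -0.10.

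**Figure D1:**
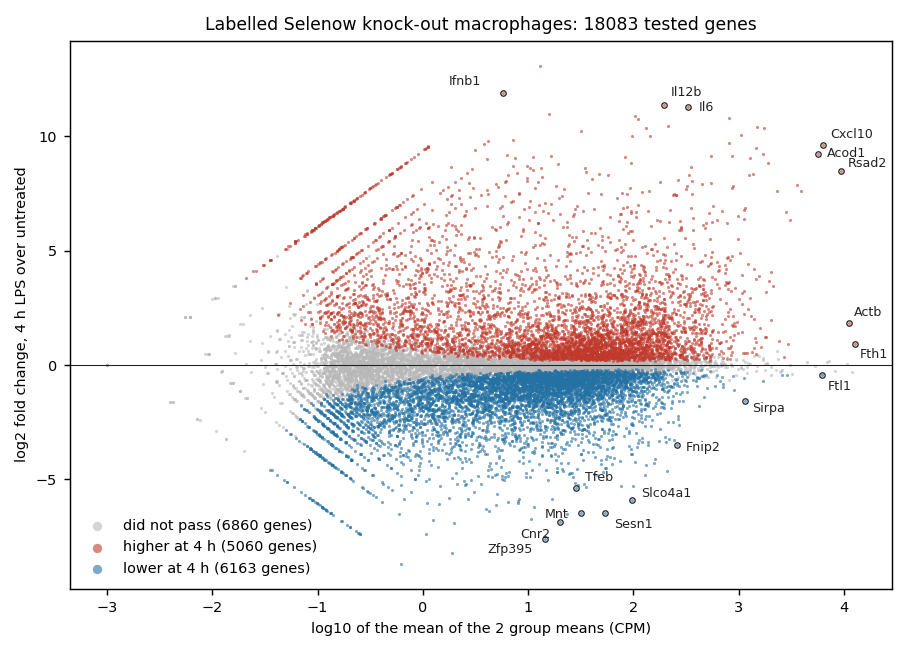
Log2 fold change at 4 h of LPS (y axis) against the log10 of the mean level in CPM (x axis, 0.001 added) for the 18083 tested genes, 1 point a gene, red where called higher, blue where called lower and grey where the gene did not pass. Genes on slanted lines have no or few reads in 1 group, so their fitted fold changes depend on the prior count; Cxcl10, Acod1 and Rsad2 combine a rise above 8 with the highest levels, and Mnt, Sesn1 and Cnr2 lie at the foot.

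The change also moved where the fragments came from. Genes called higher took 28% to 29.7% of all fragments in untreated libraries and 62.5% to 65.2% at 4 h, and genes called lower went from 28.9% to 29.5% to 8.81% to 10.4%. The 771 genes that rose at least 16-fold went from 0.42% to 0.452% to between 16.7% and 18.6%. These genes were picked by the same contrast, so the shares describe its size. TMM factors, which absorb such a shift, were 1.24 to 1.36 untreated and 0.786 to 0.901 at 4 h. With library totals alone the median of all genes fell to -0.74 and the share of higher calls from 45.1% to 21.5% (2895 higher and 10552 lower), while median-of-ratios scaling gave 49.0%. A difference smaller than about this shift can therefore change sign with the scaling, and changes below are relative to the TMM-scaled median. With library totals alone the medians of the lists for other Toll-like receptors, Kruppel-like, lineage and MYC-network factors, lipid-mediator receptors, heat shock, iron and zinc, ribosome biogenesis and complex I also fell below 0.

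**Figure D2:**
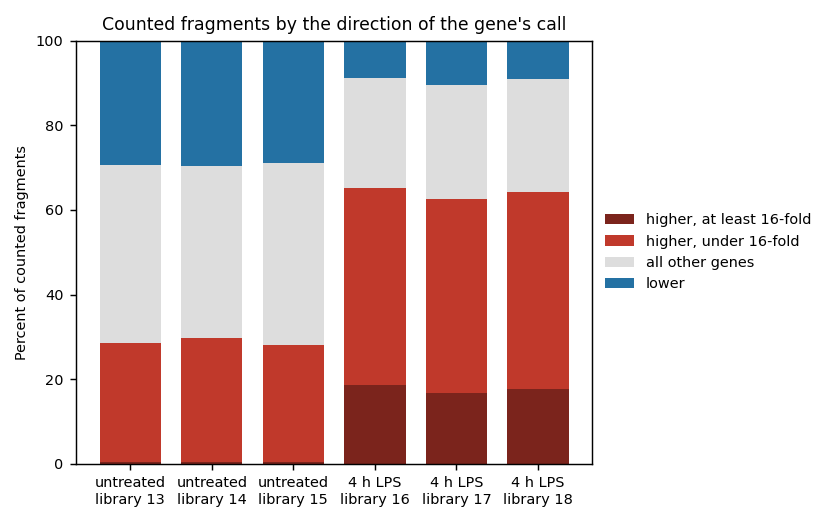
Percent of counted fragments (y axis) in each of the 6 libraries (x axis), stacked by the call of the gene they fell in. Genes higher by at least 16-fold went from at most 0.452% to at least 16.7%, and genes called lower went from at least 28.9% to at most 10.4%.

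Predicted loci aside, the 12 largest rises among genes with a mean of at least 5 CPM were mostly in secreted inflammatory signals, with the enzymes that make nitric oxide and prostaglandins among them. Ifnb1, which encodes interferon-beta, had no read in any untreated library and 8.55, 21.2 and 4.8 CPM at 4 h, at least 610-fold higher (adjusted p 3.71e-06). The highest value was in library 17. Il6, a pyrogenic cytokine, went from 0.0191, 0.304 and 0.473 CPM to 524, 1033 and 408 CPM (11.26 ± 1.32, adjusted p 5.53e-07), and Il12b, the p40 subunit of interleukins 12 and 23, from 0.0382, 0.143 and 0.256 CPM to 176, 827 and 163 CPM (11.36 ± 1.83). Library 17 held more than the other libraries in both, and without it Il12b was 10.17. Il1a and Il1b, the interleukins 1, held 0.478, 0.716 and 1.48 CPM and 1.19, 1.9 and 5.0 CPM untreated and rose to 1419, 1745 and 1641 CPM and 3415, 3700 and 3413 CPM. Nos2, which makes nitric oxide on induction, went from 0.803, 1.61 and 4.35 CPM to 3579, 1996 and 3462 CPM (10.39 ± 1.29, adjusted p 1.12e-06), with the lowest 4 h level in library 17. Il33, an alarmin, had 42.1, 9.36 and 42.4 CPM at 4 h, again lowest in library 17, against 0.0191, 0 and 0.0197 CPM untreated. Edn1 (endothelin 1), Cxcl11, Lipg (endothelial lipase), Olr1 (a receptor for oxidised lipoprotein) and Ptgs2 (cyclooxygenase 2) rose by 10.88, 10.75, 10.45, 10.34 and 10.05. Library 15 was the highest untreated library in each of these genes but Ifnb1, and without it Il12b, Il6, Edn1, Cxcl11, Lipg, Nos2, Il1b and Olr1 came to 11.99, 11.92, 11.8, 11.89, 11.31, 11.28, 11.15 and 10.97. Lipg was 9.78 without libraries 13 and 16.

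Beside Ifnb1, 9 more genes had no untreated read and at least 1 CPM in every library at 4 h, 2 of them predicted loci. Csf2, the macrophage growth factor GM-CSF, held 1.57, 3.03 and 1.57 CPM, at least 109-fold higher, and Il23r, a subunit of the interleukin 23 receptor, 2.78, 2.14 and 1.54 CPM, at least 114-fold. Il1bos, a transcript antisense to Il1b, reached 2.1, 2.35 and 2.31 CPM (at least 119-fold), which strand-blind counts cannot separate from Il1b reads. Nt5c1a, Saa1, Fat2 and Pax4 were at least 112-fold, 95.7-fold, 87.2-fold and 73.4-fold higher. Saa1 shares sequence with other serum amyloid A genes and is uncertain.

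The 12 largest falls, taken by the same rule, included a transcriptional repressor, a restraint on mTORC1, a cell death gene and receptors for lipids. Zfp395, a zinc finger gene, went from 29.8, 24.4 and 32.6 CPM to 0.0617, 0.189 and 0.185 CPM (-7.59 ± 0.72, adjusted p 3.58e-08). Mnt, a repressor that pairs with MAX and opposes MYC, went from 63.8, 49.5 and 73.3 CPM to 0.679, 0.514 and 0.955 CPM (-6.45 ± 0.25, adjusted p 1.93e-12). Sesn1, a sestrin that restrains mTORC1 when amino acids are short, went from 117, 74.9 and 124 CPM to 0.926, 1.46 and 1.14 CPM (-6.48 ± 0.39). Non-overlap of the groups was a condition of the rule. Lpin1, a phosphatidate phosphatase, fell from 22.3, 14.5 and 26.6 CPM to 0.0926, 0.216 and 0.277 CPM, and Slco4a1, an organic anion transporter, from 269.5, 134 and 168 CPM to 2.99, 3.14 and 3.39 CPM. Bmf, a BH3-only cell death gene, fell from 38.4, 11.8 and 50 CPM to 0.401, 0.784 and 0.524 CPM, with the lowest untreated level in library 14. Cnr2, Slc26a11, Lpar5, Etl4, Fam83f and Cdca7 fell (-6.85, -6.49, -6.21, -6.04, -5.99 and -5.85). Without library 17 the fall of Lpar5 was -6.91, and without library 14 that of Cdca7 -5.21. The low state did not last in all of them. Mnt held 31.1 ± 0.444 CPM and Fam83f 9.09 ± 0.651 CPM at 8 h (mean ± SD, n = 3), against 0.716 ± 0.223 CPM and 0.197 ± 0.0771 CPM at 4 h, and Lpin1 and Etl4 were at 0.315 ± 0.158 CPM and 0.198 ± 0.0383 CPM.

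**Figure D3:**
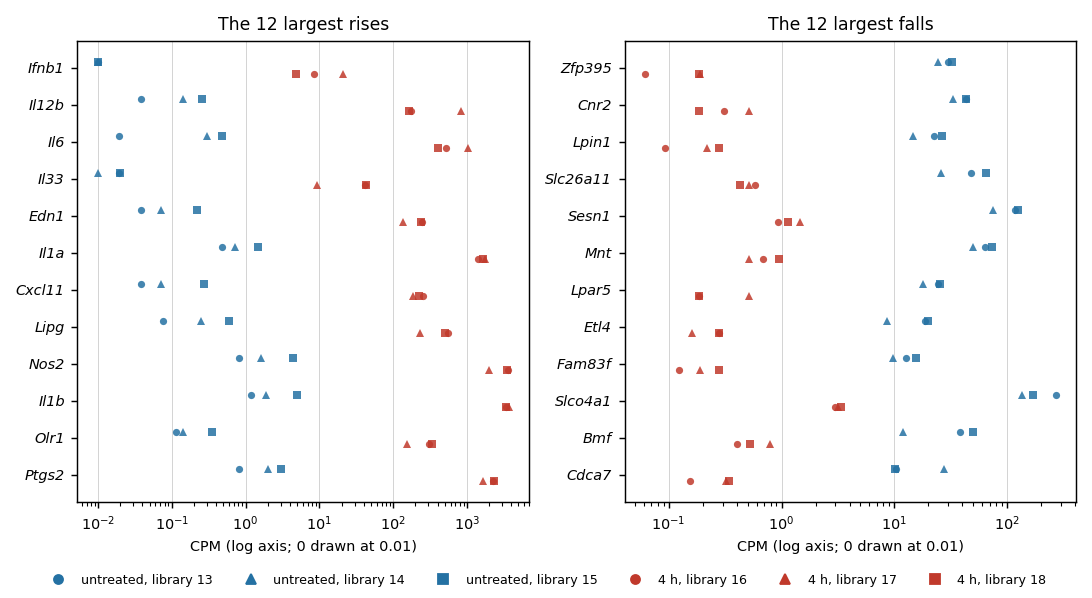
CPM on a log axis (x axis) of the 12 genes with the largest rise (left) and the 12 with the largest fall (right), 1 symbol a library, blue untreated and red 4 h LPS, with a value of 0 drawn at 0.01. The groups lie apart in each gene because only genes without overlap were taken. At 4 h library 17 (red triangle) is highest for Il12b and lowest for Il33, and untreated library 14 (blue triangle) is lowest for Bmf.

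In absolute level the rise was carried by other genes. Per length (TPM, which scales each library's length-corrected levels to a fixed total), Cxcl10, Acod1 and Rsad2 ranked 7, 10 and 11 among all genes of the table at 4 h, against 5512, 5448 and 3722 untreated. Rsad2, the antiviral enzyme viperin, went from 49.2, 24.7 and 79.6 CPM to 20790, 13960 and 20800 CPM (8.5 ± 0.76, adjusted p 1.76e-08), and Cxcl10, a chemokine for activated T cells, from 9.94, 12.7 and 25.6 CPM to 13080, 11810 and 12730 CPM (9.61 ± 1.07). Acod1, which makes itaconate, went from 11.8, 18.5 and 26.2 CPM to 11680, 10970 and 11610 CPM (9.24 ± 0.87, adjusted p 2.98e-08). All 3 were lowest in library 17 among the libraries at 4 h. Among genes already abundant, Actb (beta-actin) rose from 4740, 5564 and 4316 CPM to 18550, 15380 and 18360 CPM (1.84 ± 0.17). Of the ferritin chains, the heavy chain Fth1 rose from 8961, 7587 and 9591 CPM to 17290, 15160 and 17260 CPM (0.93 ± 0.18) and the light chain Ftl1 fell from 7570, 6514 and 7316 CPM to 5170, 5126 and 5461 CPM (-0.44 ± 0.14). The call of Fth1 was lost with library totals alone (0.29) and that of Ftl1 without libraries 13 and 16 (-0.39, adjusted p 0.0779). Large falls in level were seen for Sirpa, the receptor for the don't-eat-me signal CD47, from 1783, 1421 and 1946 CPM to 561, 532 and 626 CPM (-1.58 ± 0.17), and for Lipa, the lysosomal acid lipase, from 1326, 962 and 1372 CPM to 578, 543 and 595 CPM (-1.09 ± 0.14).

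Transcripts of the sensing apparatus moved in both directions. Of 26 genes for the LPS receptor, its adaptors and proximal kinases, 13 were higher and 7 lower, with a median of 0.43 that became -0.23 with library totals alone. Cd14, the co-receptor, rose from 359, 279.8 and 323 CPM to 1256, 1510 and 1536 CPM (2.16 ± 0.18, adjusted p 8.73e-09) and the adaptor Myd88 from 72, 61.5 and 70 CPM to 622, 539 and 597 CPM (3.11 ± 0.12). Tlr4 itself fell from 89.4, 68.4 and 84.4 CPM to 35.3, 31.7 and 31 CPM (-1.31 ± 0.18, adjusted p 4.37e-06), and so did Ticam2, the adaptor TRAM (-1.13), and Tab1, which activates the kinase TAK1 (-2.17). The kinases Map3k8, Irak2 and Ikbke rose by 3.78, 2.66 and 2.08. Among 12 other Toll-like receptors 5 rose and 3 fell. Tlr2, for bacterial lipoproteins, went from 118, 137 and 138 CPM to 1902, 2050 and 2128 CPM and Tlr3, for double-stranded RNA, from 15.4, 11.1 and 14 CPM to 417, 347 and 381 CPM (3.95 and 4.82). Tlr13, which reads bacterial ribosomal RNA, went from 379.8, 349.5 and 379 CPM to 35.6, 41.9 and 31.4 CPM (-3.35), and Tlr5, for flagellin, fell by 4.06.

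Every tested member of the NF-kB list was higher, 14 of 14 with a median of 2.80, against 28% of all genes. The list holds the subunits Nfkb1 and Nfkb2 (3.57 and 3.75) together with the inhibitors that their own activity induces. Nfkbia, which holds NF-kB in the cytoplasm, went from 65.5, 87 and 82.2 CPM to 1534, 1217 and 1560 CPM (4.2 ± 0.36), and Nfkbiz, a nuclear cofactor, from 15.5, 12.4 and 16.6 CPM to 980.1, 822 and 1039 CPM (6.0 ± 0.39, adjusted p 3e-10). Feedback genes rose beside them. Tnfaip3, the ubiquitin editor A20, went from 14.4, 23.5 and 20.7 CPM to 2481, 1883 and 2501 CPM (6.87 ± 0.45). Of 20 genes of the A20 and RNA-decay list 14 rose and 4 fell, and members of 1 family went apart. Zfp36 (tristetraprolin), which destabilises AU-rich cytokine mRNAs, rose from 56.6, 47.4 and 70.5 CPM to 1746, 888 and 1909 CPM (4.7), while its relatives Zfp36l1 and Zfp36l2 fell from 108, 79.2 and 139.9 CPM to 16.9, 14.5 and 23.5 CPM and from 329.6, 222 and 343 CPM to 17.4, 10.9 and 18 CPM (-2.58 and -4.27). Zc3h12a, the RNase regnase-1, rose by 4.57.

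Cytokine and MAP kinase signalling genes also moved in both directions. In the SOCS family, inhibitors of JAK kinases, 5 of 8 rose and 2 fell. Socs3 went from 5.68, 5.78 and 11.9 CPM to 2680, 1777 and 3031 CPM (8.32 ± 0.48), Socs1 from 1.93, 1.99 and 2.54 CPM to 701, 660.5 and 660 CPM (8.29 ± 0.42) and Cish from 0.459, 0.394 and 0.532 CPM to 46.6, 71.1 and 55.4 CPM (6.96 ± 0.37), whereas Socs5 and Socs6 fell (-1.26 and -1.28). Of 12 dual-specificity phosphatases, which switch MAP kinases off, 7 rose and 3 fell. The nuclear members Dusp1 and Dusp2 went from 6.88, 6.88 and 6.36 CPM and 1.32, 1.81 and 2.05 CPM to 321, 136 and 292 CPM and 267, 141 and 248 CPM (5.22 and 6.98), with library 17 lowest at 4 h in both. Dusp16 rose by 3.65, and Dusp3, Dusp6 and Dusp7 fell (-1.73, -1.24 and -1.69). Of 23 AP-1 and immediate early genes 15 were higher and 3 lower (14 and 5 with library totals alone). Junb rose by 4.14 and Fosl2 by 3.21. Of the NR4A orphan receptors, Nr4a3 went from 0.172, 0.179 and 0.118 CPM to 25.3, 62.8 and 21.9 CPM (7.84 ± 1.04; 7.21 without library 17, its highest), while Nr4a1 fell from 3.38, 4.3 and 3.98 CPM to 1.48, 1.08 and 1.54 CPM (-1.51 ± 0.24).

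Cytokines and chemokines rose almost throughout. Of 30 cytokines 27 were higher and 1 lower, with a median of 6.41, or 6.23 with 2 genes without untreated reads, Csf2 and Csf3, set to their bounds. Il16, a chemoattractant for CD4 T cells, was the member that fell, from 47.7, 24.3 and 56.6 CPM to 4.11, 3.41 and 4.93 CPM (-3.37 ± 0.33). Of 23 chemokines 20 rose and none fell, with a median of 6.70. Ccl5 went from 2.62, 2.79 and 6.83 CPM to 3214, 2647 and 2838 CPM (9.47 ± 0.64; 10.06 without library 15) and Ccl3 from 72.5, 59.8 and 95.1 CPM to 6084, 6357 and 5786 CPM (6.32 ± 0.55). Library 17 decided the size of others. Cxcl3, which draws neutrophils, held 79.3, 348 and 73.7 CPM at 4 h (9.09 ± 0.74), and Ccl17, a ligand of CCR4, 3.64, 37.4 and 2.0 CPM (9.85 ± 1.75). Without library 15 Cxcl3 was 9.8, and without libraries 13 and 16 Ccl17 was 10.64. Without library 17 they came to 7.97 and 7.51, and both calls held. The 3 chemokines that did not pass were Ccl6, Cxcl14 and Ccl25. Cxcl14 held 13.4, 43.2 and 8.84 CPM untreated and 35.8, 50 and 33.7 CPM at 4 h, and without library 14, the highest untreated one, its fold change was 1.84 (adjusted p 0.000219).

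Receptors for these signals were more mixed. Of 35 cytokine receptors tested, 26 rose and 7 fell. Cd40, through which T cells activate macrophages, went from 8.56, 9.58 and 9.25 CPM to 1207, 1137 and 1072 CPM (6.96 ± 0.55), and Il4ra from 112, 96.7 and 135 CPM to 1747, 486 and 1974 CPM (3.62 ± 0.45), with library 17 far below the other libraries. Il2ra and Tnfrsf9 (4-1BB), known mainly from lymphocytes, rose from at most 0.0394 CPM and 0.0716 CPM to 20.7, 7.36 and 16.7 CPM and 32.1, 7.63 and 27.1 CPM. Ifngr1, Tgfbr1 and Il6ra fell (-1.63, -1.78 and -2.14). Csf1r, the receptor of the growth factor CSF-1 on which macrophages depend, held 2953, 2017 and 3247 CPM untreated and 2481, 1930 and 2548 CPM at 4 h and did not pass (-0.24 ± 0.18, adjusted p 0.265), although without library 14 it did (-0.42, adjusted p 0.0477). Of 17 chemokine and formyl peptide receptors 9 rose and 3 fell, with a median of 0.63 that was -0.02 with library totals alone. The formyl peptide receptors Fpr1 and Fpr2 went from 1.32, 1.15 and 1.4 CPM and 1.51, 1.18 and 1.56 CPM to 48, 56.3 and 36.8 CPM and 93.9, 81.5 and 55.4 CPM. Cxcr4, the receptor that retains cells in bone marrow, fell from 203, 109 and 262 CPM to 4.97, 2.46 and 7.18 CPM (-5.3 ± 0.57), Gpr183, an oxysterol receptor, from 34.9, 44.3 and 29.1 CPM to 1.27, 2.08 and 0.832 CPM (-4.68 ± 0.33), and Ccr2, the receptor of CCL2, fell by 2.73. The enzyme that starts the synthesis of the GPR183 ligand, Ch25h, went the other way, from 5.09, 13.6 and 6.44 CPM to 2813, 2464 and 2926 CPM (8.35 ± 0.77).

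Interferon-stimulated genes rose almost throughout. Of 50 antiviral effectors 48 were higher (median 3.81), and all 19 guanylate-binding proteins and immunity-related GTPases were higher (median 5.75). Ifit1, which binds foreign RNA, went from 33.6, 13.7 and 44.9 CPM to 8058, 5256 and 7972 CPM (7.85 ± 0.51), Cmpk2 from 45.5, 22 and 52.5 CPM to 8638, 6227 and 8577 CPM (7.61 ± 0.73) and Oasl1 from 9.75, 4.01 and 9.31 CPM to 1804, 1852 and 1623 CPM (7.84 ± 0.57). Gbp5, a GTPase that attacks pathogen membranes, went from 3.86, 2.49 and 7.99 CPM to 2918, 2049 and 2705 CPM (9.06 ± 0.79; 9.65 without library 15), and Gbp2 from 20.1, 9.78 and 30.2 CPM to 2532, 1717 and 2390 CPM (6.79 ± 0.57). Of 20 interferon, IRF and STAT genes 16 rose and 2 fell, among them Irf7 (4.69), Irf1 (3.45) and Jak2 (4.95). Stat6, which carries the interleukin 4 signal, fell by 0.53. Several IFIT and GBP genes have near-identical copies, so the split of reads between them is uncertain.

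The promoters of 6 strongly raised genes are shown because they carry the sequence elements by which NF-kB and the interferon factors are known to act. Each run is the 250 bases before the RefSeq start of the gene (GRCm38.p6), on the strand of the gene, 5′ to 3′. Capitals mark matches on either strand to the kB consensus and to the interferon-stimulated response element, searched as GAAA, any 2 bases and GAAA, and no matches of these motifs overlap in the runs.
Ifnb1: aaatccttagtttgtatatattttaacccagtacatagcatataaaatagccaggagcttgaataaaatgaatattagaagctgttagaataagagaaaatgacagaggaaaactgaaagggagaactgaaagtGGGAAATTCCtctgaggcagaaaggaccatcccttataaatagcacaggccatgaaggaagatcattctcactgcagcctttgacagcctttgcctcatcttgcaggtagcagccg
Il6: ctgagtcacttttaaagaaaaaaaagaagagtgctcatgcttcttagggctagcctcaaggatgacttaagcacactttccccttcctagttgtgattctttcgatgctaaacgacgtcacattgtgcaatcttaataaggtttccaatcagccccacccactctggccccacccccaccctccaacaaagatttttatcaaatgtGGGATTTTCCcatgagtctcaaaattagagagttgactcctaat
Cxcl10: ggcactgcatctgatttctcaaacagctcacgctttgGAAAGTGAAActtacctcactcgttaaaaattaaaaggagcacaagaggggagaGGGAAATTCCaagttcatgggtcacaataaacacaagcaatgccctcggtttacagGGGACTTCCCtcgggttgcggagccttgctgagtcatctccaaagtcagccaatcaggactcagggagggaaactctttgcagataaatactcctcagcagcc
Rsad2: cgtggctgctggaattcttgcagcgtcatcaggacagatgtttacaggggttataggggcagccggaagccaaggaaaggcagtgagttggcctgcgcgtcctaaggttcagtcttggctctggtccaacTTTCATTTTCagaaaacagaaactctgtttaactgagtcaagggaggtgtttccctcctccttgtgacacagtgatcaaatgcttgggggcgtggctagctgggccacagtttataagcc
Ifit1: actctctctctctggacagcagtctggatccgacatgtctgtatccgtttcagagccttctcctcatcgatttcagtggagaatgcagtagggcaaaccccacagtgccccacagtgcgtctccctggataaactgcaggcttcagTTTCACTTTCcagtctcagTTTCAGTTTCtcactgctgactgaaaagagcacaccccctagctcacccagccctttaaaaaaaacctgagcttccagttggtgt
Gbp5: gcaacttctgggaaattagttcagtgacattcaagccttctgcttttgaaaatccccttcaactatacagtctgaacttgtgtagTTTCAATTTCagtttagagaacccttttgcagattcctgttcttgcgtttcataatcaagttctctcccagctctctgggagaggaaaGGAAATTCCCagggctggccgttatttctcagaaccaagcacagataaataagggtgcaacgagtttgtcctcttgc
The runs lie at chr4:88522795-88523044 (minus strand), chr5:30012864-30013113 (plus), chr5:92348890-92349139 (minus), chr12:26456453-26456702 (minus), chr19:34640639-34640888 (plus) and chr3:142496684-142496933 (plus). Ifnb1 has a kB match 116 to 107 bases before the start and Il6 one 44 to 35 bases before it. Cxcl10 holds a response element at 213 to 204 bases and kB matches at 159 to 150 and 103 to 94. Rsad2 and Ifit1 hold response elements only, at 120 to 111 bases in Rsad2 and at 104 to 95 and 85 to 76 in Ifit1. Gbp5 holds a response element at 165 to 156 bases and a kB match at 77 to 68.

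Windows of the same length held the motifs more often in genes with larger rises. Among 11110 tested genes with such a promoter in the table, 5.42% held a kB match and 3.48% a response element. Of 478 genes called at least 16-fold higher, 11.9% held a kB match and 10.9% a response element. Among 1477 genes called 2-fold to 16-fold higher the shares were 7.11% and 5.75%, and among 1282 called higher by less they were 4.68% and 3.82%. Genes that did not pass (3687) stood at 4.91% and 2.79%, and genes at least 2-fold lower (2447) at 4.9% and 2.49%. The gradient was not particular to these motifs. An AP-1 motif (TGA, any base, TCA) was in 14.2% of genes at least 16-fold higher, against 5.88% of tested genes. The E-box CACGTG was in 7.74% against 9.56%. By list, 10 of 11 guanylate-binding and related genes with a promoter held a response element, as did 15 of 39 antiviral effectors. A kB match was in 5 of 10 NF-kB genes and 8 of 19 genes of MHC class I presentation. Lists with few rises held it as well, in 3 of 10 genes of MHC class II presentation and 4 of 18 of cholesterol synthesis and uptake. It was in 0 of 10 MAP kinase phosphatases, a list in which 7 of 12 genes rose. A match is a run of letters and was not tested as a binding site. Il12b, Il1b, Ptgs2, Acod1 and Ccl3 had neither a kB match nor a response element in this window.

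Genes for antigen presentation through MHC class I rose together, and most of those for class II did not pass. Of 23 class I genes 21 were higher and none lower (median 2.13), led by the peptide transporter Tap1, from 69.5, 57.5 and 68.3 CPM to 933, 762 and 896 CPM (3.73 ± 0.22), and the transactivator Nlrc5, from 32.2, 22.8 and 32.2 CPM to 389, 237 and 377 CPM (3.52 ± 0.29). Of 36 proteasome subunits 28 were higher and none lower at a median of 0.59, but with library totals alone 11 were higher and 10 lower (median -0.05). The largest rises in the list were in the inducible subunits of the immunoproteasome and its activator: Psmb10, Psmb9 and Psmb8 rose by 2.48, 2.37 and 1.84, and Psme2 by 2.26. Of 14 class II genes 4 rose and 2 fell (4 without library 14), with a median of -0.04 (0.03 with median-of-ratios scaling). The class II chain H2-Ab1 went from 29.5, 19.9 and 29.3 CPM to 96.5, 60.3 and 70.9 CPM (1.53 ± 0.24). Of 17 costimulatory and checkpoint molecules 12 rose and 3 fell (median 2.34). Cd274, the checkpoint ligand PD-L1, went from 12.7, 6.64 and 17.1 CPM to 791, 532 and 829.7 CPM (5.89 ± 0.47) and Cd86 from 9.56, 8.04 and 11.3 CPM to 169, 80.8 and 172 CPM (3.87 ± 0.27), whereas Cd80, which shares receptors with Cd86, held 3.17, 2.63 and 4.37 CPM untreated and 3.92, 5.22 and 3.57 CPM at 4 h (adjusted p 0.407). Vsir, the checkpoint VISTA, fell from 479, 315 and 537 CPM to 43.8, 42 and 49.8 CPM (-3.3 ± 0.36).

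**Figure D4:**
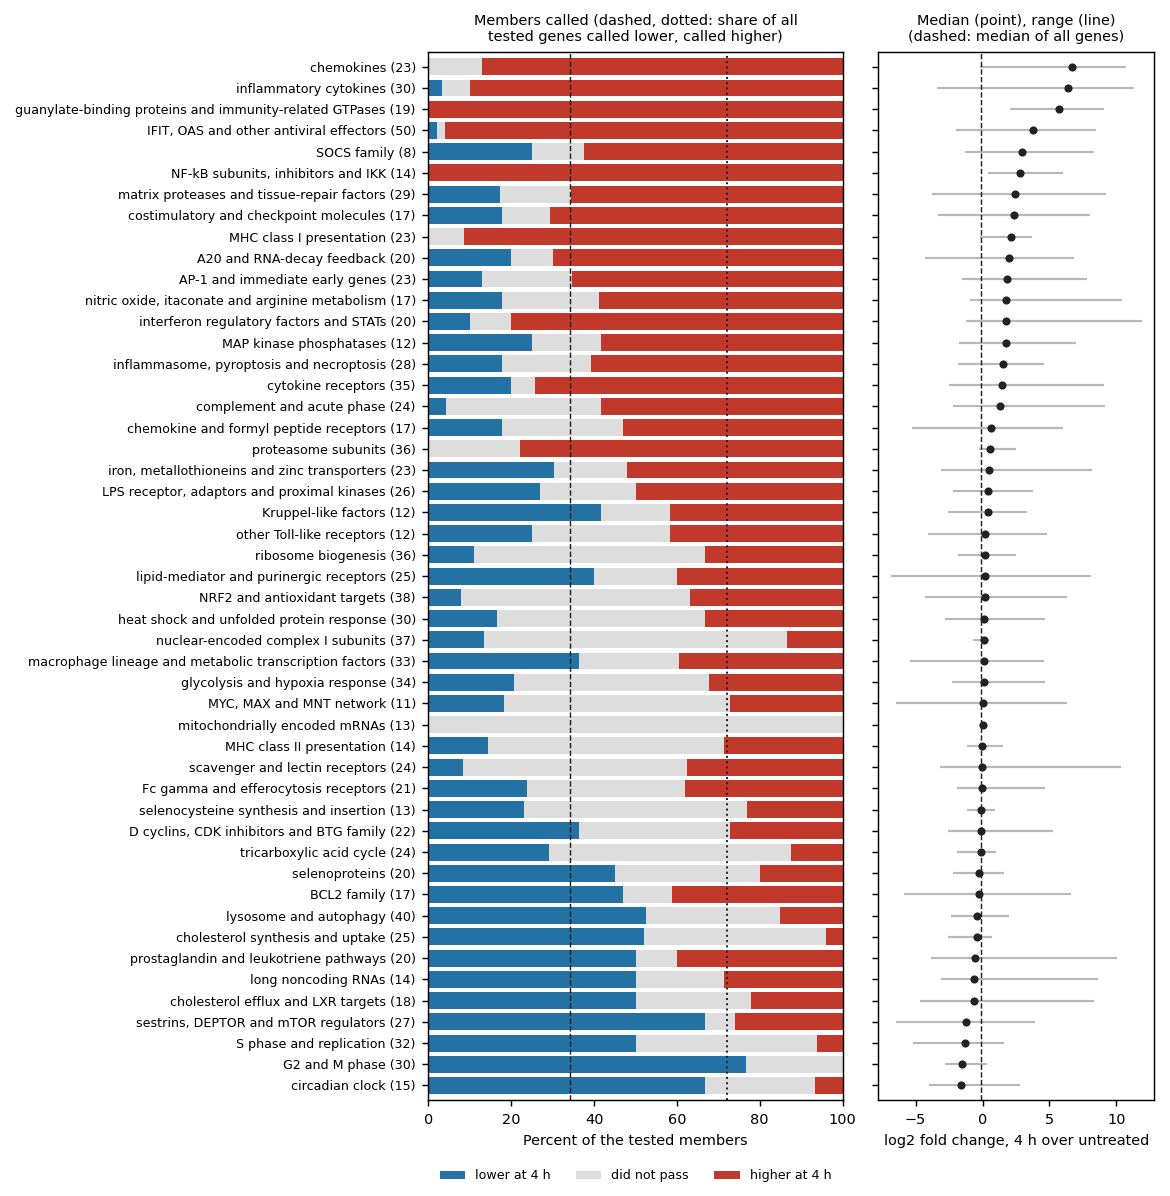
Left, percent of the tested members of each of 49 gene lists (number tested in brackets) called lower (blue), not passing (grey) and called higher (red), with lines at the shares of all tested genes called lower (34.1%) and higher (28%). Right, the median (point) and range (line) of the members' log2 fold changes, with a dashed line at the median of all tested genes (-0.10); chemokines (6.70) and cytokines (6.41) head the order and the circadian clock (-1.64) ends it.

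Genes of arginine and arachidonate metabolism changed in both directions. Of 17 genes for nitric oxide, itaconate and arginine, 10 rose and 3 fell (1 without library 13, 15 or 18). Beside Nos2 and Acod1, the arginine transporter Slc7a2 went from 2.6, 3.62 and 4.98 CPM to 903, 811 and 983 CPM (7.91 ± 1.08), Ass1, which regenerates arginine, from 7.23, 14.4 and 6.42 CPM to 189, 216 and 174 CPM (4.37 ± 0.65), and Gch1, the first enzyme of the cofactor tetrahydrobiopterin, from 17.2, 17.4 and 14.9 CPM to 230.1, 186 and 229 CPM (3.7 ± 0.25). Of 20 prostaglandin and leukotriene genes 8 rose and 10 fell, a median of -0.59. Of the genes for prostaglandin E2 synthesis in the list, Pla2g4a, which frees arachidonate, rose by 2.03, and the inducible cyclooxygenase Ptgs2 by 10.05, while the other cyclooxygenase, Ptgs1, fell by 1.4. The synthases Ptges2 and Ptges3 were at 0.33 and 0.68, but at -0.32 and 0.03 with library totals alone, and the Ptges2 call was lost without library 13, 15 or 16. Ptges rose by 8.01, from 1.26, 1.27 and 1.65 CPM to 431, 155 and 494 CPM. Hpgd, which inactivates prostaglandins, fell from 125, 74.9 and 107 CPM to 19.9, 10.3 and 13.2 CPM (-2.83 ± 0.44). Receptors of prostaglandin E2 went apart, with Ptger2 up by 1.99 while Ptger3 fell by 3.87.

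Genes of central carbon metabolism held calls in both directions. Of 34 glycolysis and hypoxia genes 11 were higher, 7 lower and 16 did not pass, against 28% higher and 34.1% lower of all genes. The median was 0.09, or -0.55 with library totals alone. Pfkfb3, which makes the activator of phosphofructokinase, went from 41.3, 31.4 and 47.2 CPM to 1247, 579 and 1301 CPM (4.7 ± 0.48), while the isoforms Pfkfb2 and Pfkfb4 fell (-1.76 and -2.02). Hk2 (hexokinase 2) rose by 3.43 and Hif1a by 2.6, and of the glucose carriers Slc2a6 rose by 3.05 and Slc2a3 fell by 2.25. Of 24 tricarboxylic acid cycle genes 3 were higher (5 without library 14) and 7 lower (4 without library 18), against the same shares of all genes. The largest change there was in cytosolic Idh1, from 228, 145 and 233 CPM to 58.6, 52.8 and 50.5 CPM (-1.9 ± 0.24). None of 13 mitochondrially encoded mRNAs and 10 of 37 nuclear complex I subunits were called (5 in each direction), against 62.1% of all genes. Leaving out 1 library at a time gave 2 to 8 higher and 1 to 6 lower complex I genes. With library totals alone 12 of the 13 and 26 of the 37 were called lower.

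Genes of sterol synthesis fell where they were called, apart from the regulator Srebf2. Of 25 tested genes for cholesterol synthesis and uptake 13 were lower and 1 higher (median -0.43), with 4 higher without library 14 and 2 without library 17. Stard4, a sterol carrier, went from 48.8, 67.8 and 41.8 CPM to 7.84, 8.33 and 10.4 CPM (-2.58 ± 0.29), Dhcr7 from 38.4, 56.1 and 32 CPM to 6.17, 12.4 and 5.91 CPM (-2.37 ± 0.34) and Lss (lanosterol synthase) from 40.4, 60.8 and 31.1 CPM to 10.9, 14.7 and 12.3 CPM (-1.8 ± 0.21). The member that rose was Srebf2, the transcription factor of the pathway, from 229.8, 283 and 211 CPM to 366, 401 and 407 CPM (0.70 ± 0.13), a call lost with library totals alone (0.05). Of 18 efflux and LXR-related genes 9 fell and 4 rose, but 1 or 2 rose without library 13, 14, 16 or 18. Scd2, a fatty acid desaturase, fell from 319, 657 and 238 CPM to 10.4, 27.7 and 10.5 CPM (-4.64 ± 0.68; -5.27 without library 17), and Soat1, Nceh1 and Abcg1 fell (-2.24, -2.48 and -1.69). Rxra, the partner of the LXR receptors, went from 76.8, 55.7 and 99.9 CPM to 4.38, 5.76 and 6.78 CPM (-3.78 ± 0.41).

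Genes of nutrient sensing and the lysosome fell more often than they rose, as did all tested genes (34.1% lower and 28% higher). Of 27 sestrins and other mTOR regulators 18 were lower and 7 higher (median -1.24, against -0.10 over all genes). Besides Sesn1, folliculin (Flcn) and its partner Fnip2, which relay amino acid supply to the lysosome, went from 102, 68.5 and 111 CPM and 516, 336 and 572 CPM to 4.75, 3.3 and 6.01 CPM and 45.3, 13.2 and 67.1 CPM (-4.33 ± 0.29 and -3.5 ± 0.49). Tfeb, the transcription factor for lysosome genes that folliculin controls, went from 59.5, 43 and 65.3 CPM to 1.27, 1.11 and 1.63 CPM (-5.39 ± 0.26, adjusted p 1.54e-11). Ddit4 and Rictor ran against the list and rose by 3.92 and 1.73. Of 40 lysosome and autophagy genes 21 were lower and 6 higher (median -0.42). The kinase Ulk1, which starts autophagy, fell from 51.4, 29.5 and 60.4 CPM to 8.03, 12 and 7.64 CPM (-2.35 ± 0.26), and Uvrag and Ulk2 fell (-1.9 and -1.63). The cargo receptor Sqstm1 (p62) rose from 589.8, 455 and 637 CPM to 1857, 2865 and 1971 CPM (1.99 ± 0.24). Within the 250-base windows, 6 of 30 lysosome and autophagy genes held the E-box CACGTG directly after GT, the core of the element that TFEB is known to bind, against 3.65% of tested genes. The E-box alone, which each such match contains, was in 10 of 30 against 9.56%. Shares of the longer element varied between lists, at 2 of 10 for MHC class II, 3 of 18 for cholesterol synthesis and uptake and 0 of 25 for mTOR regulators. Calls of the genes with a match were not compared with those of the rest.

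Circadian and cell cycle genes also moved. Of 15 circadian genes 10 were lower and 1 higher (median -1.64). Per1 went from 28.1, 24.2 and 33 CPM to 2.93, 1.95 and 3.08 CPM (-3.42 ± 0.22), Dbp from 16.3, 8.38 and 25.5 CPM to 1.02, 0.568 and 1.54 CPM (-4.01 ± 0.47) and Nr1d1 (REV-ERB alpha) from 7.13, 4.89 and 9.27 CPM to 0.587, 0.893 and 0.832 CPM (-3.19 ± 0.34). Nfil3, which represses the targets of DBP, rose by 2.78. Of 30 G2 and M phase genes 23 were lower and none higher (median -1.57), and of 32 S phase genes 16 were lower and 2 higher (median -1.31). In Foxm1, Cdc6, Uhrf1 and Rrm2 libraries 14 and 17 were the highest of their groups. Foxm1, which drives mitotic genes, held 62.6, 114 and 39.4 CPM untreated and 7.99, 21.9 and 6.47 CPM at 4 h (-2.57 ± 0.44), or -3.32 without library 17. Cdc6, which loads the replicative helicase, held 4.3, 18.1 and 1.52 CPM and 0.216, 0.649 and 0.0924 CPM (-4.59 ± 0.93), or -3.14 without library 14 and -5.67 without library 17. Uhrf1, which maintains DNA methylation, and Rrm2, a ribonucleotide reductase subunit, fell (-2.79 and -2.9), and lost their calls without library 14 (adjusted p 0.117 and 0.0531), while without library 17 they were -4.32 and -4.44. Without library 14 the G2 and M list had 16 lower genes and the S phase list 6 lower and 5 higher, and without library 17 they had 27 and 23 lower genes. The S phase list had 10 lower genes without library 16 or 18, and none higher without library 13 or 15. E2f2, another cell cycle factor, fell without overlap of the groups, from 52.4, 68.8 and 42.6 CPM to 1.05, 2.46 and 0.986 CPM (-5.17 ± 0.38).

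Regulators of the cycle did not all follow. Cdkn1a, the inhibitor p21, rose from 52.6, 79.2 and 49.6 CPM to 1442, 1915 and 1625 CPM (4.78 ± 0.38), and Ccnd2, a D cyclin that drives entry into the cycle, from 11.9, 37.1 and 6.24 CPM to 788, 677 and 688 CPM (5.28 ± 0.65; 6.3 without library 14). The pocket proteins Rb1 and Rbl2, which hold cells in G1, fell (-1.99 and -2.29). In the list of D cyclins, CDK inhibitors and BTG genes 6 of 22 were higher and 8 lower, near the shares of all genes (28% and 34.1%). Those shares are also the comparison for the counts of the lists that follow. Of 11 MYC-network genes tested 3 rose and 2 fell, and partners of MAX exchanged places: Mnt and Mxd4 fell (-6.45 and -3.69), Mxd1 rose from 16.8, 11.7 and 22.3 CPM to 425, 186 and 502 CPM (4.45 ± 0.55) and Mycl from 0.382, 0.501 and 0.354 CPM to 33.1, 45.3 and 22.8 CPM (6.34 ± 0.55). Mycl was at 0.603 ± 0.183 CPM by 8 h (n = 3). Of 33 lineage and metabolic transcription factors 13 rose and 12 fell. Cebpb rose by 3.13 and Id3 by 3.64, and Fli1 and Bhlhe41 fell (-3.09 and -3.87). Of 12 Kruppel-like factors 5 rose, led by Klf8 (3.35) and Klf7 (2.44), and 5 fell, led by Klf9 (-2.57) and Klf16 (-2.53).

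G protein-coupled receptors for lipids and nucleosides moved both ways, with 10 of 25 higher and 10 lower, against 28% and 34.1% of all genes. Adora2a, the adenosine receptor that restrains inflammation, went from 0.268, 0.179 and 0.413 CPM to 76, 94.9 and 71.1 CPM (8.13 ± 0.80). Gpr84, a receptor for medium-chain fatty acids, went from 6.73, 30 and 8.23 CPM to 1109, 1519 and 1025 CPM (6.34 ± 0.77; 7.35 without library 14), and Hcar2, the niacin receptor, from 2.83, 4.21 and 2.54 CPM to 167, 159 and 199 CPM (5.77 ± 0.74). The lysophosphatidic acid receptors traded places, Lpar1 rising from 0.535, 0.752 and 0.63 CPM to 45.6, 43.3 and 37.7 CPM (6.04 ± 0.49) and Lpar5 falling from 24.4, 17.8 and 25.4 CPM to 0.185, 0.514 and 0.185 CPM. Cnr2, the peripheral cannabinoid receptor, went from 42.8, 33.4 and 43 CPM to 0.309, 0.514 and 0.185 CPM (-6.85 ± 0.53), and S1pr1 from 92.4, 79.8 and 96.6 CPM to 7.19, 4.92 and 10.3 CPM (-3.59 ± 0.39).

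Lists of uptake, death and repair genes held calls in both directions. Of 24 scavenger and lectin receptors 9 rose and 2 fell: Clec4e (Mincle) rose by 4.9 and Msr1 by 2.59, and Cd163, the haemoglobin receptor, fell from 30.6, 21.9 and 26.3 CPM to 2.41, 3.0 and 3.48 CPM (-3.15 ± 0.54). Of 21 Fc gamma and efferocytosis receptors 8 rose and 5 fell. The Fc receptors Fcgr1, Fcgr2b and Fcgr4 rose by 2.86, 2.91 and 3.13, and Mertk, which takes up dying cells, fell by 1.45. Of 28 inflammasome and necroptosis genes 17 rose and 5 fell, with Nod2, Mefv and Cflar up by 4.59, 4.55 and 3.83 while Nlrp1b fell by 1.82. In the BCL2 family 7 of 17 rose and 8 fell, against 28% and 34.1% of all genes. The survival gene Bcl2a1d went from 1.05, 1.85 and 1.73 CPM to 130, 194 and 124 CPM, with near-identical copies that make its share uncertain, and Pmaip1 (NOXA) and Bcl2 fell (-2.83 and -2.01). Of 24 complement and acute phase genes 14 rose and 1 fell: Saa3 went from 1.66, 1.79 and 5.93 CPM to 2060, 1502 and 1656 CPM (9.12 ± 0.80; 9.97 without library 15) and Cfb from 2.87, 2.42 and 3.41 CPM to 653, 374 and 484 CPM (7.44 ± 0.37). Of 29 matrix protease and repair genes 19 rose and 5 fell. Mmp13, a collagenase, went from 7.88, 6.84 and 9.67 CPM to 2117, 812 and 2222 CPM (7.72 ± 0.45), and Mmp9 fell by 2.17. Of 14 noncoding RNAs 4 rose and 7 fell, and Mir155hg, the host transcript of miR-155, went from 0.0765, 0.0179 and 0.0591 CPM to 25.1, 15.1 and 22.5 CPM (8.61 ± 0.95).

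Redox, stress and metal genes responded in part. Of 38 NRF2 and antioxidant genes 14 rose, 3 fell and 21 did not pass, with a median of 0.17 that was -0.46 with library totals alone. Slc7a11, the cystine importer, went from 6.63, 7.63 and 6.89 CPM to 467, 684 and 507 CPM (6.29 ± 0.50) and mitochondrial Sod2 from 54.5, 65 and 63.7 CPM to 1430, 1003 and 1298 CPM (4.35 ± 0.50), and the NRF2 target Osgin1 fell from 41.9, 29.6 and 46 CPM to 2.04, 1.79 and 2.19 CPM (-4.29 ± 0.31). Of 30 heat shock and unfolded protein genes 10 rose and 5 fell, the stress kinase Eif2ak3 (PERK) among the latter (-2.79). Of 23 iron, metallothionein and zinc genes 12 rose and 7 fell. Slc40a1, the iron exporter ferroportin, went from 129.5, 62 and 146 CPM to 16, 9.85 and 14.2 CPM (-3.08 ± 0.55), the zinc importer Slc39a14 from 23.3, 49.1 and 19.4 CPM to 391, 294 and 463 CPM (3.64 ± 0.43) and the metallothionein Mt2 from 9.43, 10.2 and 8.15 CPM to 794, 210.5 and 657 CPM (5.9 ± 0.57), lowest in library 17. Of 36 ribosome biogenesis genes 12 rose and 4 fell (3 and 14 with library totals alone).

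Because the cells carry the label of a selenoprotein knock-out, the other selenoproteins were read separately. Of 20 tested 4 rose, Selenow included, and 9 fell, at a median of -0.24 (2 and 14 with library totals alone, and 2 rising without library 14 or 16), against 28% and 34.1% of all genes. Txnrd1, cytosolic thioredoxin reductase, rose from 235, 287 and 216 CPM to 687, 777 and 736 CPM (1.58 ± 0.18, adjusted p 2.78e-07) and Selenot from 128, 126 and 119.7 CPM to 283, 257 and 264 CPM (1.1 ± 0.13). Both groups of libraries lay apart in these genes. Sephs2, which makes the selenium donor and is a selenoprotein itself, fell from 51.8, 53 and 62.3 CPM to 18.3, 34.7 and 19.7 CPM (-1.2 ± 0.19), Selenoo from 34.4, 29.6 and 34.5 CPM to 15.7, 19.2 and 16.9 CPM (-0.93 ± 0.12) and Dio2, a deiodinase at 2.31 CPM or less, fell by 2.21. Of 13 genes for selenocysteine synthesis and insertion 3 rose and 3 fell. Pstk rose by 0.96, and Scly, which recycles selenium from selenocysteine, fell by 0.77.

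Fold changes in the wild-type libraries ran close to those of the labelled knock-out. Across the 18083 genes the log2 fold changes of the 2 genotypes correlated at 0.952 as a description, and they share no library. In wild-type libraries 62.9% of the genes were called. Of these, 10020 were called in the same direction in both genotypes and 5 in opposite directions. The difference between the responses was tested as an interaction in the same fit, and 8 genes were called (0.0442%; 714 at an unadjusted p under 0.05). In 7 of them (0.0387% of those tested) the response was lower in the labelled knock-out. The count depends on the method: DESeq2 called 37 and limma-voom 9. Of the 8 genes, 5 lie on chromosome 17, which holds 5.44% of the tested genes, and 4 are predicted loci or stay under 5 CPM. Read pairs were counted for every gene they overlap, so the 5 may share reads, which was not tested.

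Tagap1, a GTPase-activating gene at chr17:6955011-6961156 (GRCm38) whose reads may be shared with its paralogue Tagap, differed most. Wild-type libraries held 10.5, 9.72 and 10.4 CPM untreated and 123, 108 and 142 CPM at 4 h, while the labelled knock-out held 6.88, 7.15 and 6.71 and 4.29, 5.33 and 4.59 CPM. The difference of the responses was -4.15 (adjusted p 4.83e-06), and Tagap1 did not pass in the knock-out alone (-0.54 ± 0.24, adjusted p 0.0602). Nlrc4, which encodes an inflammasome sensor (chr17:74425438-74459142), rose in wild-type libraries from 13.1, 13 and 8.32 CPM to 59.2, 57 and 51.9 CPM and fell in the labelled knock-out from 18.9, 14 and 20.4 CPM to 9.97, 9.87 and 9.33 CPM (-3.16, adjusted p 0.000569). At 8 h the knock-out libraries held 37.9, 27.1 and 41.9 CPM and the wild-type libraries 98.5, 93.3 and 115 CPM. Cdc42ep3, an effector of the GTPase CDC42 (chr17:79333727-79355091), fell in both, to 20.7, 17.1 and 12.4 CPM in wild-type and 2.35, 4.19 and 2.0 CPM in knock-out libraries from 37.4, 39.8 and 31 and 31.9, 27.5 and 31.7 CPM (-2.3, adjusted p 0.00502). Pcyox1, prenylcysteine oxidase (chr6:86386006-86397154), fell to 57.4, 59.1 and 54.7 CPM and to 25.3, 31.3 and 26.4 CPM, from 134, 131 and 104 and 142, 116 and 141 CPM (-1.16, adjusted p 0.022). Libraries 13 and 16, which held near wild-type Selenow, lay with the other knock-out libraries in all 4 genes. The genes were called with both libraries counted as knock-out, so this is partly set by the choice of genes and is no check of the label. Without both of them the calls of Cdc42ep3 and Pcyox1 were lost (adjusted p 0.123 and 0.277), and that of Pcyox1 also without library 13, 15, 16 or 18.

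**Figure D5:**
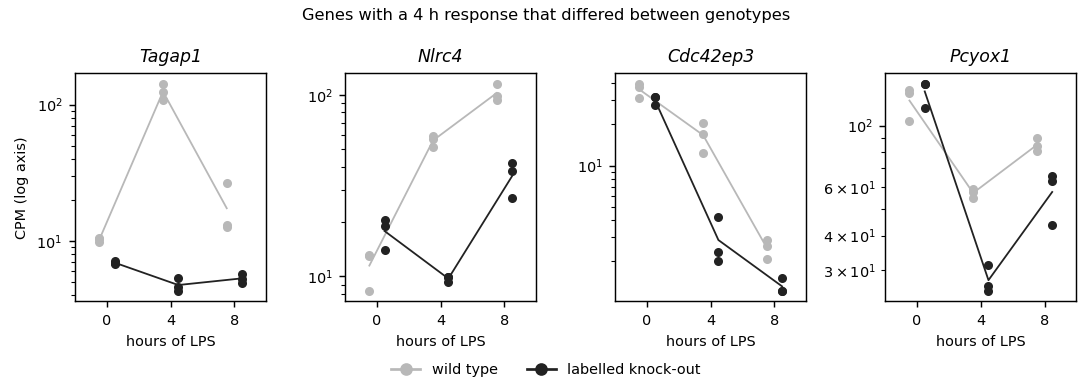
CPM on log axes (y axes, 1 panel a gene) at 0, 4 and 8 h of LPS (x axes) in wild-type (grey) and labelled knock-out (black) libraries, 1 point a library and lines through the means of 3. Tagap1 and Nlrc4 rise in the grey points at 4 h and not in the black, and Cdc42ep3 and Pcyox1 fall further in the black.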

How the data were processed

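RNA was sequenced from mouse bone marrow-derived macrophages, and the comparison used libraries 13 to 18 of 23. Per the submitters' processing notes the authors aligned reads with HISAT2 (version not given in the sources used here) to GRCm38. Per the file headers they counted fragments per gene with featureCounts 2.0.1 on Ensembl 101 exons, without strand, each pair counted for every gene it overlaps. Overlapping and antisense genes therefore share reads, and near-identical copies (paralogs in the GBP, IFIT, BCL2A1 and serum amyloid families) are uncertain. The processing notes also name DESeq2. The authors deposited these whole-number counts. Symbols came from GENCODE M21, which matched 55141 identifiers and left 260 unmatched.

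Here the counts of all 23 libraries were fitted with edgeR 4.0.16 in R 4.3.3 (filterByExpr, TMM factors, 8 group means), and the contrast of libraries 16, 17 and 18 against 13, 14 and 15 was tested by quasi-likelihood F-test with Benjamini-Hochberg adjustment. Standard errors are the log2 fold change divided by the root of F. The fit was also run on simulated counts in which a small set of genes changed, about balanced in direction. So few changes cannot check the scaling under the large shift seen here, and no result rests on that run. Alternatives were median-of-ratios (RLE), upper-quartile and no composition scaling, DESeq2 1.42.0, limma-voom 3.58.1, no filter, a filter of 1 CPM in 3 libraries, an adjusted p of 0.01, a test against a fold of 1.5, the 6 libraries alone, a library set found in an earlier analysis of these data (libraries 3, 6, 9, 12, 14, 17, 20 and 23) as a term or left out, and each library left out. The fit without composition scaling was chosen after seeing the data. With 3 libraries per group the smallest exact permutation p would be 0.10, so the tests rest on the fit across genes.

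The members and lists were chosen with earlier results of these data known. Genes were named by rule: Selenow, the 12 largest rises and falls whose groups do not overlap (mean over the 6 libraries 5 CPM or more), the 8 largest rises and falls in CPM, up to 8 genes without untreated reads, up to 6 called members of each list with the members against its direction and those not passing, and the largest interaction differences. Not every gene the rule gives is named, and several whose call or sign depended on a setting were left unnamed after their values were seen. Csf3, the markers of other cell types, Ptgs1, Ptges2 and Ptges3 were named after their values were seen. Predicted loci were counted and not named, and 3 genes the rule gives are not reported here. Promoter sequences are from RefSeq (GRCm38.p6). TPM used the summed exon length per gene.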

Additional observations from a re-analysis of the deposited data

Results flagged for a closer look

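In 4 named genes the response to 4 h of LPS differed between the labelled knock-out and wild-type libraries by the interaction test (edgeR's quasi-likelihood test). The log2 difference of the responses was -4.15 for Tagap1, -3.16 for Nlrc4, -2.30 for Cdc42ep3 and -1.16 for Pcyox1. The fitted responses of Tagap1 and Nlrc4 had opposite signs in the 2 genotypes, but Tagap1 did not pass in the knock-out alone (-0.54, adjusted p 0.0602 by the same test). Cdc42ep3 and Pcyox1 fell in both genotypes, and their interaction calls were lost without libraries 13 and 16.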

How the results depend on the processing

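No paired analysis was possible because the labels pair no libraries and no running number occurs in more than 1 group. A set of libraries that an earlier analysis of these data found (3, 6, 9, 12, 14, 17, 20 and 23 against the others), which the labels do not give, was used as a term (11838 calls) or kept out. Of the 238 named genes, 238 kept direction and call with median-of-ratios scaling, 235 with upper-quartile scaling and 226 with library totals alone. In the test against a fold of 1.5, 228 kept both, and at least 231 did without any single library. Several genes whose call or sign depended on a setting had been left unnamed. These counts therefore describe the named genes only and are no test of robustness. The scaling set the balance of calls, with 2895 higher and 10552 lower genes with library totals alone. The test against a fold of 1.5 called 7289 genes, 3344 higher and 3945 lower. Leaving out 1 library gave 10248 to 10883 calls, 4627 to 4985 higher and 5551 to 6003 lower. Of the calls, 64.9% to 99.9% were kept in the same direction over all alternatives run.

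The interaction with genotype gave 37 genes with DESeq2, 68 without that set, 12 with a term for it, 5 in the test against a fold of 1.5, 4 at an adjusted p of 0.01, 3 without libraries 13 and 16, and 4 to 8 without 1 library. Selenow was 0.86 with upper-quartile scaling, 0.28 with library totals alone, 0.98 with the 6 libraries alone and 0.93 at an adjusted p of 0.01 or against a fold of 1.5, none of them called, and 0.40 to 1.56 without 1 library. Ptges2 became -0.32 with library totals alone. Among genes that did not pass, Cd80 became -0.29 with library totals alone, and Ccl6 ranged from -0.34 to 0.041 without 1 library. The cause of these shifts was not tested.

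With 3 libraries a group and about equal depth, the spread between libraries limits small differences. For genes under 1 CPM untreated, few reads set the size of the fold change.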
